A study of Homo sapiens with 6 samples.

Results

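The amyloid precursor protein and its secretases were examined in the human neuroblastoma line SH-SY5Y, which keeps traits of young sympathetic neurons, as the transcripts of 9 genes: APP, its paralogues APLP1 and APLP2, the beta-secretase BACE1, the alpha-secretase ADAM10, and PSEN2, NCSTN, APH1A and PSENEN of the gamma-secretase complex. All probe sets whose platform annotation names exactly 1 gene, and that gene in this list, were taken. This gave 47 of the 49293 probe sets tested, for 9 of 18132 genes. The arrays were Affymetrix one-colour expression arrays, with 3 for cells given 3 µM endosulfan, an organochlorine insecticide, for 24 h and 3 for control cells, all in MEM and F12 medium with serum. The labels name biological replicates of a single line but no culture, passage or day, so the p-values measure the spread between these samples alone. The labels name the control arrays' agent as control, yet their treatment text carries the same endosulfan dose as that of the exposed cells; what the control cells received, and for how long, is otherwise not stated. The question was whether the transcripts of this pathway differ between exposed and control cells.

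APP is a single-pass membrane protein that is cut in sequence by different proteases. ADAM10 sheds its ectodomain within the amyloid-beta stretch, which prevents formation of that peptide, whereas BACE1 cuts at the start of the stretch. The gamma-secretase complex then cuts the remaining stub inside the membrane, and after BACE1 this releases amyloid-beta, the peptide of Alzheimer's disease plaques. APLP1 and APLP2 are cut by the same enzymes but lack the amyloid-beta stretch. SH-SY5Y cells are widely used in studies of this processing. Transcript levels do not measure cleavage or protein.

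Each array had a median log2 value of 4.89 to 4.94, and none of the 15 array pairs was identical. All 11 measured markers of sympathetic neuroblastoma, of 13 listed, were above the array median in control cells, with STMN2 at 12.3 and PHOX2A at 11.6. The mean of these 11 per array was 10.98 to 11.10 in control and 10.74 to 10.78 in endosulfan cells, without overlap. Of the 11, 0 passed the test. ISL1 differed by -1.33, STMN2 by -1.05, MYCN by -0.48, GATA3 by -0.35, CHGB by -0.31 and HAND2 by -0.01. The others lay above 0, with PHOX2A at 0.27, DBH at 0.14, TH at 0.13, GATA2 at 0.06 and CHGA at 0.02. Above the array median in control cells were also 4 of 6 epithelial, 1 of 5 haematopoietic, 2 of 4 endothelial and 3 of 3 Schwann or glial markers measured. Among these KRT19 was at 6.87, CD68 at 5.95, VWF at 6.30 and GFAP at 6.64, whereas EPCAM, CDH1 and PTPRC were at 3.23, 3.57 and 2.86. The per-array means of these other lists overlapped between the groups, and 0 of their genes passed the test. The arrays differed in their bacterial poly-A spike-in transcripts, which are added to the RNA before labelling. They averaged 6.57 in the control group (SD 1.02, n = 3) and 8.11 in the endosulfan group (SD 0.60, n = 3) (exact permutation test, two-sided, p = 0.2). With 3 arrays against 3, such a test cannot go below 0.1. On the first principal component of all other probe sets, control 1 (-71.5) and endosulfan 1 (61.7) lay at the ends, while control 2 (-2.33) and endosulfan 2 (-1.83) were nearly level. The part of these measures in the results was not tested.

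None of the 47 probe sets passed the test, which asked for an adjusted p below 0.05 (limma with Benjamini-Hochberg adjustment over all probe sets). Over the whole array 4 probe sets passed, which is 0.00811%, and the share that passed with a lower value was 0%. The smallest adjusted p among the 47 was 0.215. At an unadjusted p below 0.05, 17 of the 47 were lower in endosulfan cells, where 9.21% of all probe sets were, and 0 were higher, where 6.30% of all were. In either direction the share of all probe sets was 15.5%. All endosulfan arrays lay below all control arrays in 19 of the 47, against 9.24% of all probe sets, and above in 1, against 11.5%. Of the 19, 11 belong to APP, 3 to APLP2, 3 to NCSTN, 1 to BACE1 and 1 to ADAM10. These counts do not rest on independent probe sets, because most genes are read by several, and 18 of the 47 share a target record with another. With each gene read by its brightest probe set, APP, APLP2 and NCSTN were lower at an unadjusted p below 0.05 (limma). The other member genes did not pass that limit, and 10.5% of all genes were lower at it. The median log2 difference, endosulfan minus control, was 0.02 over the 47 and 0.05 over all probe sets.

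**Figure D1:**
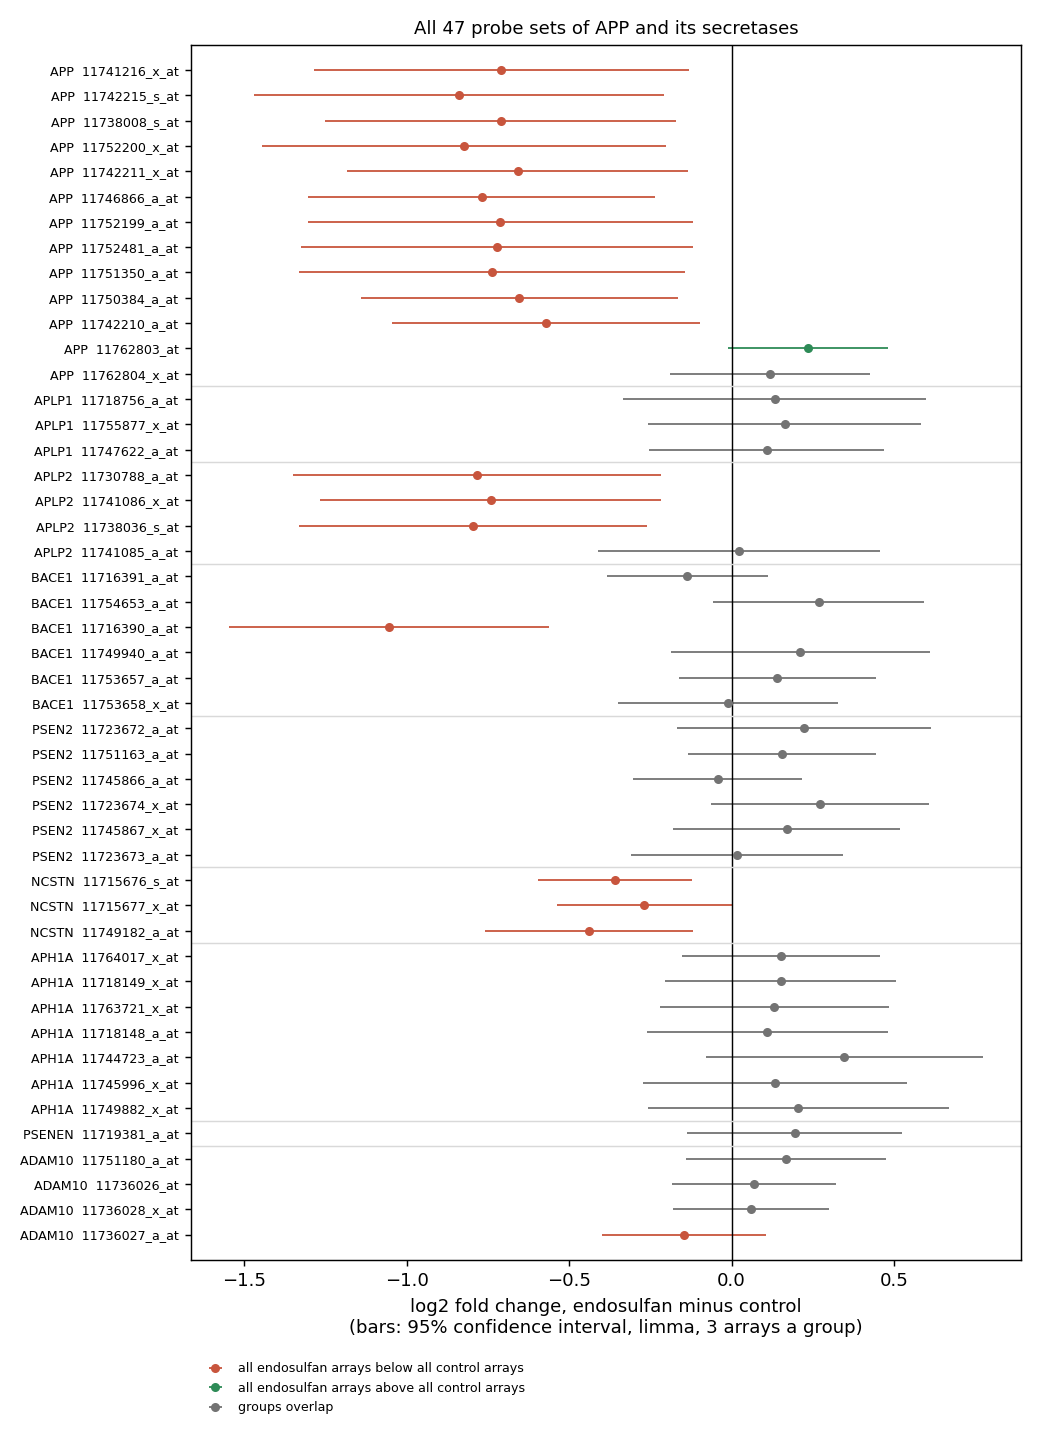
Log2 difference, endosulfan minus control, of each of the 47 probe sets, with the 95% confidence interval from limma (3 arrays a group). Red marks the 19 probe sets with all endosulfan arrays below all control arrays, green the 1 with all above, and grey the 27 whose groups overlap; APP, APLP2, NCSTN and 1 BACE1 probe set hold all red points but 1.

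APP itself was read by 13 probe sets, and 11 of them, those above the median level of the array, had lower values in every endosulfan array than in any control array. Their log2 differences ran from -0.84 to -0.57, which is 1.48-fold to 1.79-fold, with adjusted p between 0.229 and 0.271 (limma). The probe set with the highest mean, 11741216_x_at, read 10.11, 9.23 and 9.38 in control 1, 2 and 3 and 8.52, 9.14 and 8.93 in endosulfan 1, 2 and 3. The groups did not overlap, but control 1 stood alone at the top, endosulfan 1 at the bottom, and control 2 and endosulfan 2 were 0.10 apart. Its means were 9.57 ± 0.47 and 8.86 ± 0.31 (SD, n = 3), a log2 difference of -0.71 (95% interval -1.29 to -0.13). Probe set 11742215_s_at, with the largest difference of the 13, read 9.80, 8.82 and 8.99 in control and 8.09, 8.74 and 8.26 in endosulfan arrays, a difference of -0.84 ± 0.27 (SE). Again control 1 was highest and endosulfan 1 lowest.

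Much of the array order was shared by these 11 APP probe sets, though the lowest control array was control 2 in some and control 3 in others. In all 11, control 1 was the highest of the 6 arrays, endosulfan 1 the lowest and endosulfan 2 the highest of the endosulfan arrays. The gap between the lowest control and the highest endosulfan array was 0.04 to 0.23 on the log2 scale, smaller than the SD within the control group, which ran from 0.36 to 0.56. Without control 1 the 11 differences shrank to between -0.55 and -0.36, and without control 1 and endosulfan 1 to between -0.40 and -0.22. Because the groups did not overlap, leaving out arrays could not change their sign. With a covariate for the poly-A spike-in level the 11 differences lay between -0.72 and -0.44, with SEs of 0.33 to 0.42, and 0 passed the test. In bulk RNA, fewer cells with a transcript and less of it per cell cannot be told apart.

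The remaining 2 APP probe sets, 11762803_at and 11762804_x_at, share a target record and were dim, below the array's median level of 4.92. Probe set 11762803_at read 4.26, 4.25 and 4.20 in control and 4.60, 4.35 and 4.46 in endosulfan arrays, the single member probe set with all endosulfan arrays above all control arrays. Its difference was 0.24 ± 0.11 (SE, limma, adjusted p = 0.338). The other read 3.73, 3.74 and 3.75 in control and 3.95, 3.59 and 4.04 in endosulfan arrays, and its groups overlapped.

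APLP2, a paralogue expressed in most tissues, was read by 4 probe sets, of which 3 had every endosulfan array below every control array. In these control 1 was the highest array and endosulfan 2 the highest endosulfan array, as for APP, but endosulfan 1 was the lowest in 1 of the 3 and endosulfan 3 in the others. The brightest, 11730788_a_at, read 10.53, 9.55 and 9.89 in control and 9.09, 9.48 and 9.06 in endosulfan arrays. Endosulfan 2 came within 0.08 of control 2. The difference was -0.78 ± 0.24 (SE, 1.72-fold, limma, adjusted p = 0.235). Probe set 11738036_s_at read 8.71, 7.84 and 8.16 against 7.44, 7.72 and 7.17, and 11741086_x_at read 10.35, 9.47 and 9.78 against 8.98, 9.40 and 8.99. Both had groups that did not overlap. Without control 1 the 3 differences lay between -0.56 and -0.50, and with the spike-in covariate between -0.32 and -0.29 (SE 0.28 to 0.32). The dimmer probe set 11741085_a_at did not share the pattern, reading 5.59, 4.90 and 5.08 in control and 5.40, 5.20 and 5.05 in endosulfan arrays, a difference of 0.02.

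APLP1, the paralogue found mainly in neurons, had differences of 0.11 to 0.16 on its 3 probe sets, with groups that overlapped in each (limma, adjusted p 0.683 to 0.771). The brightest, 11718756_a_at, read 9.81, 10.50 and 10.31 in control and 10.60, 10.09 and 10.33 in endosulfan arrays. Here control 1 was the lowest array and endosulfan 1 the highest, the reverse of APP; for APLP2 control 1 was the highest array. Probe set 11755877_x_at read 8.53, 9.12 and 8.97 against 9.28, 8.83 and 9.00, and 11747622_a_at read 7.05, 7.51 and 7.61 against 7.58, 7.43 and 7.49. Control 1 was the lowest array in all 3. The difference of the brightest probe set was -0.07 without control 1 and 0.005 without endosulfan 1. With the spike-in covariate, fitted on all arrays, it was -0.12 ± 0.30 (SE).

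The family members were also compared within each array, as differences between their brightest probe sets, which show unequal change and not which gene is more abundant. These 3 comparisons were chosen with results known and use exact permutation tests, two-sided, with Benjamini-Hochberg adjustment over the 3. APP minus APLP1 was 0.30, -1.27 and -0.94 in control arrays and -2.07, -0.96 and -1.40 in endosulfan arrays. The groups overlapped, and the mean shift of -0.84 had p = 0.2 (permutation test, adjusted 0.3). APLP2 minus APLP1 shifted by -0.92, with p = 0.2 (permutation test, adjusted 0.3). APP minus APLP2 ran from -0.51 to -0.32 in control and from -0.56 to -0.13 in endosulfan arrays, a shift of 0.07 with p = 0.7 (permutation test, adjusted 0.7).

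**Figure D2:**
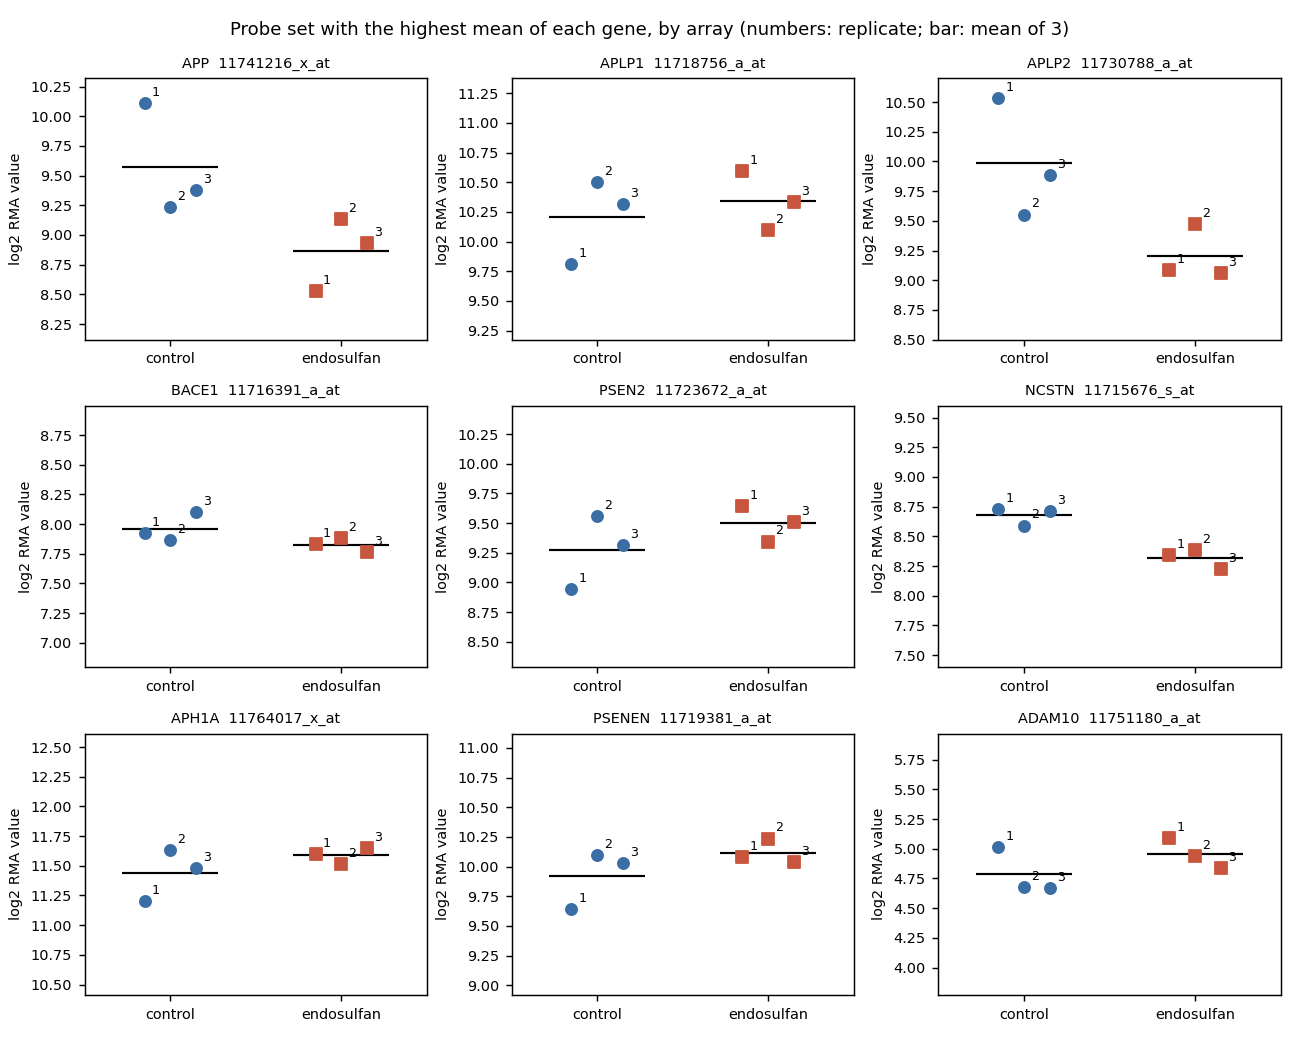
Log2 RMA value of the brightest probe set of each of the 9 genes in every array, with the replicate number beside each point and a bar at the mean of 3 arrays; the panels have axes of equal span and different origin. APP, APLP2 and NCSTN have no overlap between the groups, and control 1 lies at an end of its group for APP (10.11), APLP2 (10.53), APLP1 (9.81), PSEN2 (8.94), NCSTN (8.73), APH1A (11.20), PSENEN (9.64) and ADAM10 (5.01). Of all genes, 10.2% had no overlap with lower values and 12.4% with higher values.

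The promoters of the family are shown because APP and APLP2 lay together over the arrays and APLP1 did not. The windows are the 250 bases before each RefSeq start on GRCh38.p14, on the gene's strand, 5′ to 3′. All 9 genes were found in the table, and APP has 2 starts in it. Capitals mark the GC box GGGCGG on either strand, the letters bound by Sp1-type factors. The APP windows are chr21:26171129-26171378 and chr21:26170771-26171020, both on the minus strand. The APLP2 window is chr11:130070318-130070567 and the APLP1 window chr19:35868324-35868573, both on the plus strand.
APP, start 1: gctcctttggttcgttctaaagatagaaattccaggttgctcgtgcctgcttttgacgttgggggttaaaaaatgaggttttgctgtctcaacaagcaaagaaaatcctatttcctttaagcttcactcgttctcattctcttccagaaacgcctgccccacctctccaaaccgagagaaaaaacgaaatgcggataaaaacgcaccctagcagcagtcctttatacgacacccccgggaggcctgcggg
APP, start 2: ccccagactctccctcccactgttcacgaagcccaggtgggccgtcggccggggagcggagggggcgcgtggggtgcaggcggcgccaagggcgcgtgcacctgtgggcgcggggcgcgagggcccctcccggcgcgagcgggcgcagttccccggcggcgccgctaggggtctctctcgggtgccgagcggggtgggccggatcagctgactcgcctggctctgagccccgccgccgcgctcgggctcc
APLP2: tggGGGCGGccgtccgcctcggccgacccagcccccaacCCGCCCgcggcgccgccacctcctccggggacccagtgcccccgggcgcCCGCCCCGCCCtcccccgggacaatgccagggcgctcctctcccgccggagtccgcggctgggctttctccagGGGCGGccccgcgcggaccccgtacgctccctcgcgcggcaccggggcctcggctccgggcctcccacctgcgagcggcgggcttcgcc
APLP1: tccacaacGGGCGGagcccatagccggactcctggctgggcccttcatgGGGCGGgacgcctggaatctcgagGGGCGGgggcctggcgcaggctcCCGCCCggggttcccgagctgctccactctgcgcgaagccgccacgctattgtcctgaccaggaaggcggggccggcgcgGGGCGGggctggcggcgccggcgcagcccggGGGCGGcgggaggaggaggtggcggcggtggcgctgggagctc

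The APLP2 window held 5 GC boxes, of which those at 162 and 157 bases before the start overlap by 1 letter. The APLP1 window held 6, at 43 to 242 bases before the start, and neither APP window held any. APP and APLP2 differed in this count, and any bearing of it on the array profiles was not tested. The GC content was 47.6% and 78.8% at the APP starts, 82.4% at APLP2 and 77.2% at APLP1. Of all 35116 windows of this length in the table, 42.6% held a GC box. Among the other genes, the windows of PSEN2 held 2 GC boxes, those of APH1A and ADAM10 1 each, those of NCSTN and PSENEN 0, and the 3 starts of BACE1 1, 0 and 1. The EGR1 motif GCGTGGGCG (in 0.72% of all windows) and the AP-1 motif TGANTCA (6.57%) were in no window of the 9 genes, and the E-box CACGTG (6.34%) was in that of ADAM10 alone. Both strands were searched. A match describes these letters and shows no binding.

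BACE1, which makes the first cut on the way to amyloid-beta, was read by 6 probe sets that disagreed. Probe set 11716390_a_at read 7.52, 6.78 and 6.84 in control and 5.78, 6.23 and 5.96 in endosulfan arrays, a gap of 0.55 between the groups, wider than in any APP probe set. Its difference of -1.06 ± 0.21 (SE, 2.08-fold, 95% interval -1.55 to -0.56) was the largest of the 47. It ranked 237 of 49293 by p and had an adjusted p of 0.215 (limma). Without control 1 and endosulfan 1 the difference was -0.72, and with the spike-in covariate -0.82 ± 0.33 (SE), where it did not pass the test.

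The other 5 BACE1 probe sets had differences from -0.14 to 0.27 and groups that overlapped. The brightest, 11716391_a_at, read 7.92, 7.86 and 8.10 in control and 7.83, 7.88 and 7.77 in endosulfan arrays. Control 3 was the highest array, and without it the difference of -0.14 was -0.07. Probe set 11754653_a_at read 7.28, 7.67 and 7.49 against 7.78, 7.56 and 7.90, and 11749940_a_at read 5.89, 6.25 and 5.66 against 6.01, 6.06 and 6.36. The dimmest, 11753657_a_at and 11753658_x_at, share a target record and differed by 0.14 and -0.01. Within each array, 11716390_a_at minus the mean of the other 5 was 1.45, 0.49 and 0.60 in control and -0.49, -0.01 and -0.41 in endosulfan arrays. This probe set was singled out after its values were seen, so no test is given. Which transcripts each probe set reads was not analysed here.

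**Figure D3:**
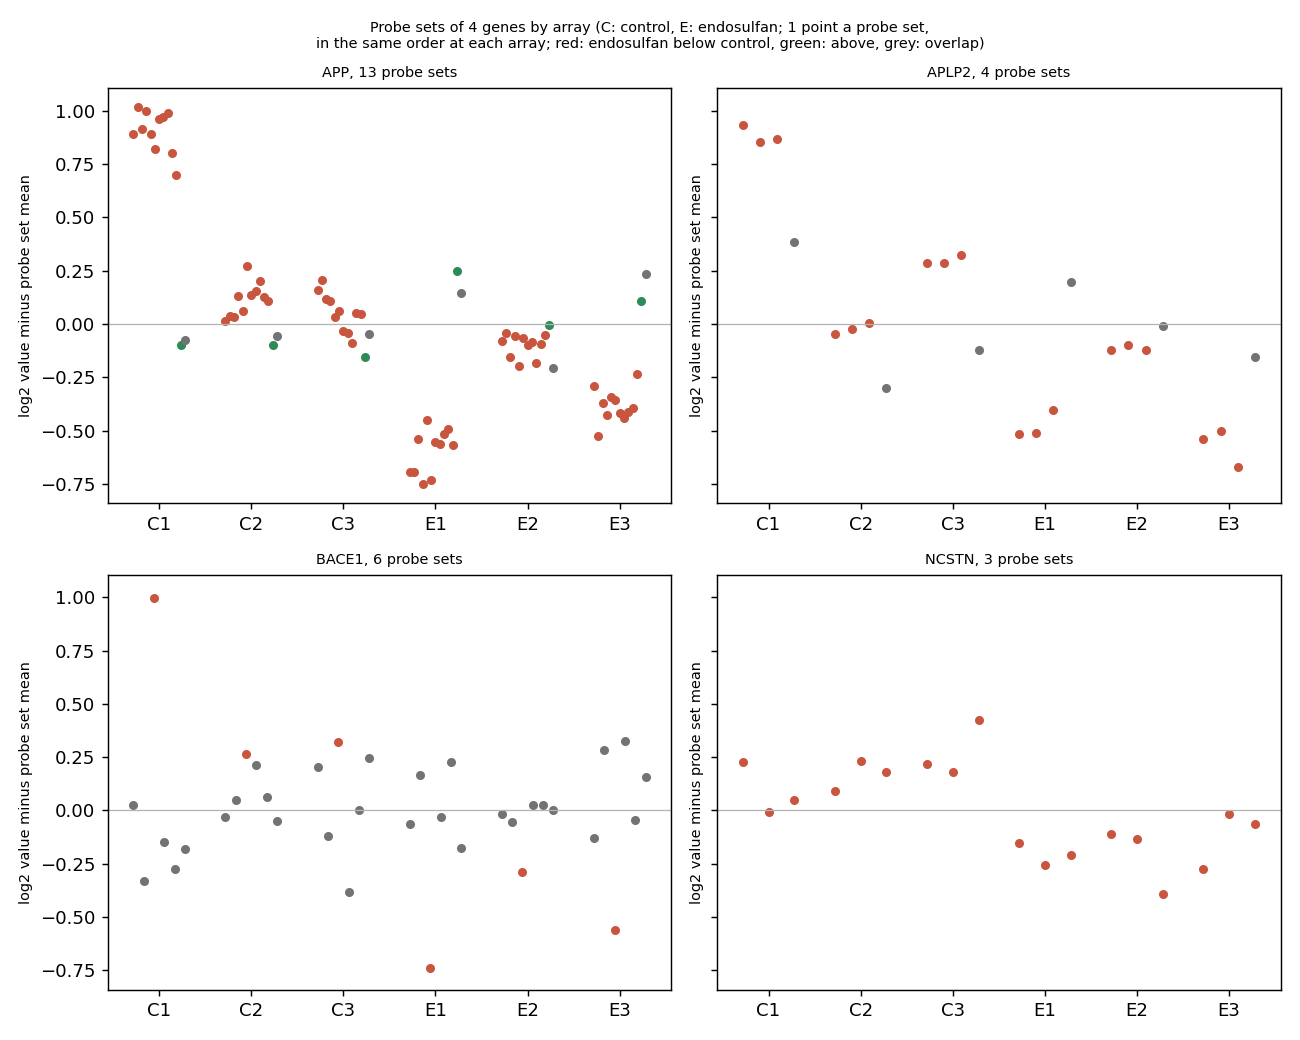
Log2 value of each probe set minus its own mean over the 6 arrays, for the 13 APP, 4 APLP2, 6 BACE1 and 3 NCSTN probe sets, with arrays C1 to C3 (control) and E1 to E3 (endosulfan) along the horizontal axis. Red points (all endosulfan arrays below all control arrays) reach their extremes at C1 and E1 for APP; in NCSTN a different array was highest and a different array lowest in each of the 3 probe sets.

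NCSTN encodes nicastrin, the large glycoprotein that receives substrates for gamma-secretase. All 3 of its probe sets had every endosulfan array below every control array. The brightest, 11715676_s_at, read 8.73, 8.59 and 8.71 in control and 8.34, 8.39 and 8.22 in endosulfan arrays, with means of 8.68 ± 0.08 and 8.32 ± 0.08 (SD, n = 3). The gap between the groups, 0.20, was wider than either SD. The difference was -0.36 ± 0.10 (SE, 1.28-fold, limma, adjusted p = 0.224). Probe set 11749182_a_at read 5.28, 5.41 and 5.65 against 5.02, 4.84 and 5.17, a difference of -0.44 (1.36-fold). Probe set 11715677_x_at, which shares a target record with the brightest, read 6.48, 6.72 and 6.67 against 6.24, 6.36 and 6.47, a difference of -0.27 with groups only 0.01 apart. Control 1 was the lowest control array in 2 of the 3, unlike in APP. Without control 1 and endosulfan 1 the brightest was at -0.35, and with the spike-in covariate at -0.22, where it did not pass the test.

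APH1A, a scaffold subunit needed early in assembly of the complex, was read by 7 probe sets with differences of 0.11 to 0.35, and the groups overlapped in each (limma, adjusted p 0.395 to 0.763). The brightest, 11764017_x_at, read 11.20, 11.63 and 11.48 in control and 11.60, 11.52 and 11.65 in endosulfan arrays. Control 1 was the lowest control array in all 7, and the endosulfan arrays had SDs of 0.03 to 0.17 against 0.22 to 0.40 in control. The largest difference was that of 11744723_a_at, which read 6.80, 7.56 and 7.16 against 7.53, 7.45 and 7.58. With the spike-in covariate, whose level averaged higher in the endosulfan group, the differences of all 7 turned negative, from -0.23 to -0.04. None of them passed the test. PSENEN, the smallest subunit, which activates the complex, had 1 probe set. It read 9.64, 10.10 and 10.03 in control and 10.08, 10.24 and 10.04 in endosulfan arrays, a difference of 0.19 ± 0.14 (SE, limma, adjusted p = 0.534). The groups overlapped, and control 1 was the lowest array.

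PSEN2, presenilin 2, a catalytic subunit of the complex, was read by 6 probe sets with differences of -0.04 to 0.27. The groups overlapped in each (limma, adjusted p 0.395 to 0.965). The brightest, 11723672_a_at, read 8.94, 9.56 and 9.32 in control and 9.64, 9.34 and 9.51 in endosulfan arrays. Control 1 was the lowest array there and the lowest control array on all 6 probe sets. Without control 1 and endosulfan 1 its difference of 0.22 was -0.01, and with the spike-in covariate -0.04 ± 0.24 (SE). The largest difference was that of 11723674_x_at, which read 5.33, 5.63 and 5.68 against 6.02, 5.64 and 5.81. Of the 17 gamma-secretase probe sets, the 3 of NCSTN were the only ones whose groups did not overlap; that NCSTN differs from the other subunits was not tested.

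ADAM10, the main alpha-secretase of neurons, was read by 4 probe sets, none above the 50th percentile of the array and 2 below the 6th. The brightest, 11751180_a_at, read 5.01, 4.68 and 4.67 in control and 5.09, 4.94 and 4.84 in endosulfan arrays, a difference of 0.17 ± 0.13 (SE, limma, adjusted p = 0.565) with overlapping groups. Probe set 11736027_a_at, the dimmest of the 47, read 2.76, 2.74 and 2.84 against 2.48, 2.72 and 2.70. Its groups did not overlap, but by only 0.02, and its difference was -0.15. The other probe sets, 11736026_at and 11736028_x_at, differed by 0.07 and 0.06. No call of signal above background was possible, so values this low carry little about the transcript.

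**Figure D4:**
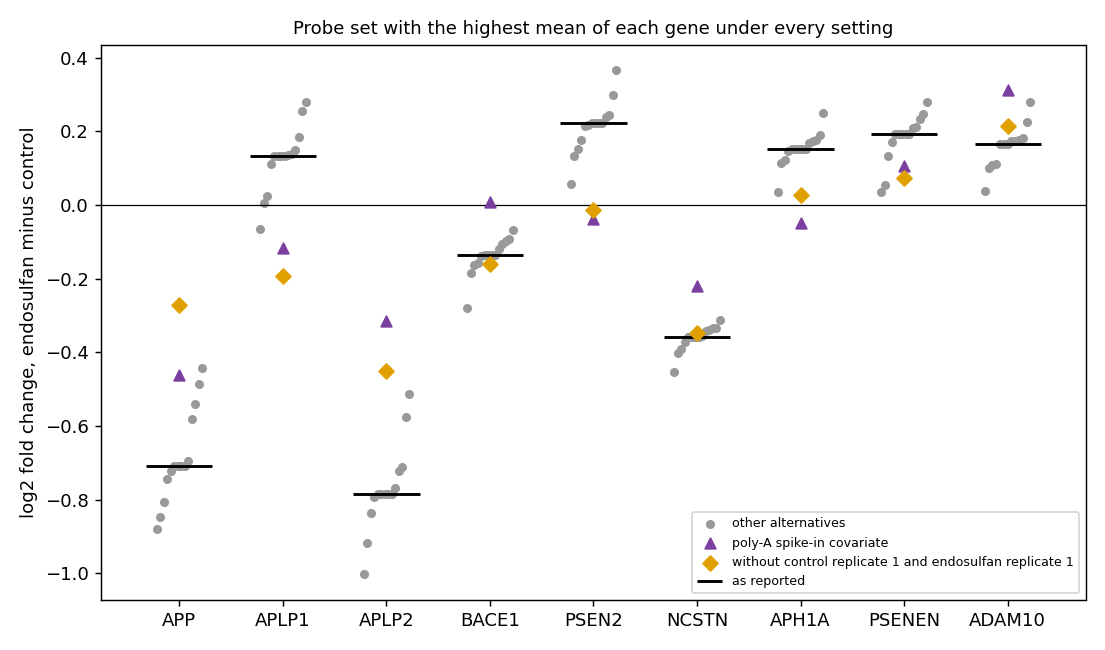
Log2 difference of the brightest probe set of each gene as reported (bar), adjusted for poly-A spike-in level (triangle), without control 1 and endosulfan 1 (diamond) and under every other alternative (grey). APP (-0.46 and -0.27), APLP2 (-0.32 and -0.45) and NCSTN (-0.22 and -0.35) lie below 0 under these alternatives. The groups of these genes do not overlap, so leaving out arrays could not change their sign. APLP1 (-0.12 and -0.19) and PSEN2 (-0.04 and -0.01) lie on the other side of 0 from the reported value.

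The genes whose profile over the 6 arrays was most like that of APP were found by the root mean square difference of the brightest probe sets after centring each on its mean. These were UBE4B (0.035 log2 units), POP4 (0.040) and DENND11 (0.041). UBE4B read 8.59, 7.69 and 7.86 in control and 7.05, 7.63 and 7.34 in endosulfan arrays. Those most like APLP2, the member with the largest gene-level difference, were FAM171A1 (0.033), AREL1 (0.035) and EXOC4 (0.036). APP and APLP2 themselves differed by 0.141 on this measure and APP and APLP1 by 0.713. None of these 6 genes passed the test.

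A wider list of 76 genes of APP processing and trafficking, in 6 groups, was described in the same way, with each gene read by its brightest probe set. Of these, 74 were measured and 0 passed the test, whereas 1 of 18132 genes on the array did (0.00552%). The smallest adjusted p among them was 0.196. At an unadjusted p below 0.05, 15 of the 74 were lower, against 10.5% of all genes, and 1 was higher, against 6.64%. Groups did not overlap in 14 with lower and 1 with higher values, against 10.2% and 12.4% of all genes. The median difference was -0.01 over the 74 and 0.05 over all genes. Of the 74, 40 lay below 0 and 34 above. Over all probe sets 19660 lay below 0 and 29633 above, and the counts below 0 in the lists that follow are to be read beside this. The count below 0 over all genes is not given. The balance was less one-sided over all 255 probe sets of these genes. Their groups did not overlap in 35 with lower and 17 with higher values, against 9.24% and 11.5% of all probe sets. At an unadjusted p below 0.05, 36 were lower and 10 higher, against 9.21% and 6.30% of all probe sets.

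Other secretase components held 5 genes, whose brightest probe sets all had differences below 0, with 0 called. Over all 21 of their probe sets 13 lay below 0 and 8 above. The groups did not overlap in 2 with lower and 4 with higher values, against 9.24% and 11.5% of all probe sets. ADAM17, the second well-known alpha-secretase, read 8.60, 7.35 and 7.65 in control and 6.56, 7.34 and 6.92 in endosulfan arrays, a difference of -0.92 ± 0.33 (SE, limma, gene-level adjusted p = 0.244). Control 1 and endosulfan 1 were at the ends, as for APP, and 2 of its 4 probe sets had the opposite sign. BACE2, a homologue of BACE1, was at -0.16, with the opposite sign on 1 of 3 probe sets.

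Among 18 genes of secretase maturation and modulation, 11 lay below 0 and 0 were called. RTN4, a reticulon that binds BACE1, read 11.20, 10.66 and 10.62 in control and 9.63, 10.26 and 10.04 in endosulfan arrays. Its difference was -0.85 ± 0.21 (SE, limma, gene-level adjusted p = 0.196), and all 8 of its probe sets had the same sign. RER1, a retrieval receptor that acts in gamma-secretase assembly, read 9.79, 9.54 and 9.89 against 9.20, 9.35 and 9.11, a difference of -0.52 with control 1 in the middle of its group.

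Of 9 measured APP adaptors, of 10 listed, 3 lay below 0 and 0 were called. APBB2, an adaptor that binds the APP tail, read 8.51, 8.34 and 8.69 in control and 7.92, 7.85 and 7.89 in endosulfan arrays, with no array apart. The difference was -0.63 ± 0.12 (SE, limma, gene-level adjusted p = 0.196), but 3 of its 7 probe sets had the opposite sign. NUMB, an endocytic adaptor known as an inhibitor of Notch, was at -0.37.

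Sorting and endocytosis held 16 measured genes of 17, of which 12 lay below 0 and 0 were called. ARF6, a small GTPase of endocytic traffic, was the 1 gene of the 74 whose brightest probe set had all endosulfan arrays above all control arrays. It read 9.23, 9.67 and 9.50 in control and 10.06, 9.88 and 9.96 in endosulfan arrays, a difference of 0.50 ± 0.13 (SE, limma, gene-level adjusted p = 0.200), and 1 of its 3 probe sets had the opposite sign. SORCS1, a sorting receptor, was at -0.83 (limma, gene-level adjusted p = 0.220). It read 6.74, 5.82 and 5.80 against 5.09, 5.59 and 5.20, with control 1 and endosulfan 1 at the ends. The list headed amyloid-beta degrading enzymes, drawn up for this report, held 8 genes whose groups overlapped on each brightest probe set. Their differences ran from -0.26 (PREP) to 0.32 (THOP1), both peptidases of the cytosol. Being listed does not show that a gene's product degrades amyloid-beta. Of all their 31 probe sets, 3 had every endosulfan array below and 1 every endosulfan array above control, with 0 called. Over all probe sets these shares were 9.24% and 11.5%. Among 18 other secretase substrates 6 lay below 0 and 0 were called, with CDH2, or N-cadherin, at -0.74 and NRG1, a BACE1 substrate, at -0.28 (2 of its 8 probe sets had the opposite sign). CDH2 read 9.78, 8.81 and 9.07 in control and 8.10, 8.80 and 8.54 in endosulfan arrays (limma, gene-level adjusted p = 0.250). Control 1 and endosulfan 1 were at the ends, and control 2 and endosulfan 2 nearly level.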

How the data were processed

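RNA of 6 arrays was analysed, 3 control and 3 endosulfan, grouped by the agent named in the labels. The authors deposited log2 values per probe set, made with Affymetrix Expression Console and RMA per the submitters' processing notes; their versions and options are not given in any source used here. RMA equalises the distributions of the arrays, which hides a common shift of most transcripts. Of 49395 probe sets, 102 array controls were set aside. Without scanner intensities no probe set could be called above background, and none was left out as dim. The number of arrays limits the precision.

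Endosulfan minus control was fitted by limma's lmFit and eBayes (limma 3.58.1 under R 4.3.3), two-sided, with Benjamini-Hochberg adjustment over 49293 probe sets, or over 18132 genes each read by its probe set with the highest mean. The poly-A level is the mean of 24 probe sets. The members, lists and tests were chosen with earlier results of these data known. By rule, every member probe set is described, with 2 genes of each further list (smallest p) and 3 genes most alike in pattern to APP and to APLP2. The fit was tested on simulated data. Promoter sequences are from RefSeq (GRCh38.p14). Alternatives changed the normalization, filter, moderation, weights, covariate, block and arrays. Levels of different probe sets are not comparable. Figures were drawn with matplotlib 3.10.9.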

Additional observations from a re-analysis of the deposited data

Results flagged for a closer look

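Measures outside the comparison of transcripts differed between the groups. The poly-A spike-in mean was 1.55 log2 units higher in endosulfan arrays (exact permutation test, two-sided, p = 0.2), with control 2 (7.73) level with endosulfan 2 (7.73). The hybridisation control mean was 0.644 higher in endosulfan arrays, and the GAPDH 3′ minus 5′ difference 0.0926 higher, each with groups that did not overlap (exact permutation test, p = 0.1, the smallest such a test can give). The beta-actin 3′ minus 5′ difference was 0.0865 higher, but its groups overlapped (exact permutation test, two-sided, p = 0.3). The part of these measures in the values of APP, APLP2 and BACE1 was not tested.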

How the results depend on the processing

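The number of the 47 probe sets that passed was 0 under every alternative except array weights, where 14 passed, 13 of them lower. These were 7 of APP, 3 of APLP2, 2 of BACE1 (1 of them higher) and 2 of NCSTN. Under these weights 7101 of all probe sets and 43 of the context probe sets passed, and the estimation of the weights did not converge; it gave endosulfan 3 a weight of 5.43 and control 1 one of 0.359. Of all probe sets, 4 passed as reported, 0 without moderation, 0 with the spike-in covariate and 0 to 7 when arrays were left out (0 without control 1, 7 without control 2, 1 without endosulfan 1 and 1 without both control 1 and endosulfan 1). With the replicate number as a block 0 of all and 0 of the 47 passed. The deviations of same-numbered arrays from their group means had correlations of -0.51, -0.40 and 0.05. Those of differently numbered arrays ran from -0.38 to 0.57. With 3 arrays a group, such correlations cannot decide whether the numbers pair the samples.

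Of 697 recomputed probe-set differences, 47 had the opposite sign, in 19 probe sets with a reported size of at most 0.35. The probe sets of APP and NCSTN, 3 of the 4 of APLP2 and BACE1 11716390_a_at were not among them. The 4 dim ADAM10 probe sets, that of PSENEN, BACE1 11754653_a_at, and PSEN2 11751163_a_at and 11723674_x_at were not among them either. Where the groups of a probe set did not overlap, leaving out arrays could not change its sign. With the spike-in covariate the reversed values were -0.12 and -0.033 (APLP1 11718756_a_at and 11755877_x_at), 0.0077 and -0.24 (BACE1 11716391_a_at and 11749940_a_at), -0.039, -0.015 and -0.18 (PSEN2 11723672_a_at, 11745867_x_at and 11723673_a_at) and -0.050, -0.056, -0.099, -0.20, -0.036, -0.23 and -0.15 (APH1A 11764017_x_at, 11718149_x_at, 11763721_x_at, 11718148_a_at, 11744723_a_at, 11745996_x_at and 11749882_x_at). At gene level they were -0.12 (APLP1), 0.0077 (BACE1), -0.039 (PSEN2) and -0.050 (APH1A). Array weights gave -0.033 (APLP1 11747622_a_at), -0.00057 (APLP2 11741085_a_at), -0.0025 (BACE1 11753657_a_at) and 0.018 (PSEN2 11745866_a_at). Centring gave 0.0046 (BACE1 11753658_x_at), and a further quantile normalization 0.0097 (PSEN2 11745866_a_at). Leaving out arrays gave -0.046 to 0.27, -0.016 to 0.27, -0.041 to 0.29, -0.037 to 0.37 and -0.030 to 0.25 for APH1A 11718148_a_at, 11718149_x_at, 11745996_x_at, 11749882_x_at and 11763721_x_at. For APLP1 it gave -0.19 to 0.28 (11718756_a_at, also at gene level), -0.10 to 0.22 (11747622_a_at) and -0.13 to 0.29 (11755877_x_at), and for APLP2 11741085_a_at -0.12 to 0.22. For BACE1 11753657_a_at and 11753658_x_at it gave -0.040 to 0.21 and -0.10 to 0.11. For PSEN2 it gave -0.015 to 0.37 (11723672_a_at, also at gene level), -0.092 to 0.15 (11723673_a_at) and -0.11 to 0.030 (11745866_a_at). The causes were not tested.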
